A study of Mus musculus with 6 samples.

Results

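The transcripts described here are those of 3 tissue inhibitors of metalloproteinases (Timp1, Timp2 and Timp3) and 7 ADAMTS proteases (Adamts1, Adamts2, Adamts4, Adamts5, Adamts9, Adamts12 and Adamts15). They were taken by symbol from the authors' table of raw counts, and all 10 were found among its 24015 symbols. The RNA came from primary cancer-associated fibroblasts, the fibroblasts of the tumour stroma, cultured from mammary tumours of NeuT transgenic mice of BalbC background. In this model a mutant form of the rat Neu receptor drives the tumours, and the sources used here give no age for the animals. All cells received nanoparticles at 1 ug/mL for 72 hours, with anti-Stat3 siRNA in 3 samples and control siRNA in 3 samples. The series asks which genes of these fibroblasts depend on STAT3, a transcription factor that cytokines such as IL-6 switch on. The titles number the samples 1 to 3 in both groups, and samples of the same number deviated together, so each number is called a pair. Nothing in the labels says that the pairs came from separate animals or cultures, so the p-values below reflect spread among these samples alone, and that spread may be technical.

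TIMPs are small secreted proteins that bind the active site of matrix metalloproteinases and block it. They also act on some ADAM and ADAMTS proteases, TIMP3 on the widest range. ADAMTS proteases are secreted metalloproteinases with thrombospondin repeats that cut large proteoglycans such as versican and aggrecan or trim procollagens, and TIMP3 is the main natural inhibitor of the aggrecan-cutting members. Fibroblasts are a main source of both families in connective tissue, and Timp1 is among the genes known to be induced by IL-6 family cytokines.

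Total counts were 12998168 to 16043022 in the anti-Stat3 samples and 14676958 to 18683852 in the controls. Levels are CPM, read counts scaled to library size with TMM factors. A count of 0 allows up to 0.231 CPM in the shallowest library, for counting error only. Stat3, the targeted gene, had 34.7, 81.9 and 78.9 CPM in anti-Stat3 samples 1 to 3, against 220, 359 and 405 CPM in controls 1 to 3. All anti-Stat3 samples lay below all controls. All 12 fibroblast markers were detected and tested, with summed levels of 15551 to 22187 CPM in anti-Stat3 samples and 14373 to 24244 CPM in controls. The summed level of 14 macrophage markers was 41.7, 1624 and 2718 CPM in anti-Stat3 samples 1 to 3 and 46.5, 1714 and 2352 CPM in controls 1 to 3, so pair 1 held few macrophage transcripts. The defining markers C1qb and C1qc had a count of 0 in anti-Stat3 sample 1 and of 1 in control sample 1, and C1qa had 2 and 0. Pair 1 was not without macrophage transcripts, since in the same samples Lyz2 had counts of 186 and 162. Cd14 had 306 and 358 there, and Csf1r 94 and 90. Epithelial markers summed to 47.8 to 442 CPM in anti-Stat3 samples and 45.4 to 439 CPM in controls, highest in pair 2. Endothelial markers summed to 9.47 to 34.96 CPM and 10.2 to 25.03 CPM, and mural cell markers to 332 to 1378 CPM and 381 to 1116 CPM. In bulk RNA, fewer cells of a type and less RNA per cell cannot be told apart.

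After anti-Stat3 siRNA, Timp1 was lower by a similar factor in all 3 pairs, and Timp3 was slightly higher in all 3. In addition, 5 ADAMTS genes were lower in pairs 2 and 3 with a value at or above that of the control in pair 1. Counted in either direction, 5 of 10 members had a pair 1 change opposite to those of both other pairs, against 25.5% of all genes. All 10 members passed the filter on low counts. None passed at an adjusted p of 0.05 in edgeR's quasi-likelihood test fitted on group alone, which called 0% of all 13284 genes. In that fit 0 members had an unadjusted p under 0.05, against 1.77% of all genes. It did not call Stat3, the silenced gene, so 0 calls there cannot show that a member was unchanged. DESeq2 with the group alone also called 0 members (0.128% of all genes). With the replicate number as a block, edgeR and limma-voom each called 0 members (0.0602% of all genes each). Blocked edgeR did call Stat3 as lower (log2 change -2.38, adjusted p = 0.00265). At an unadjusted p under 0.05 were 6 members in blocked edgeR, against 10.8% of all genes, and 7 in blocked limma-voom, against 11.2%. The members were chosen with earlier results of these data known, so such comparisons with all genes are no independent test. Blocked DESeq2 called 1 member, Timp1, as lower, against 0.783% of all genes called lower. The median log2 change, anti-Stat3 over control, of the 10 members was -0.48 with the group alone, against -0.0028 over all genes tested. Pair medians of the members were 0.12, -0.49 and -0.53, against 0.00, 0.00 and 0.01 over all genes.

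**Figure D1:**
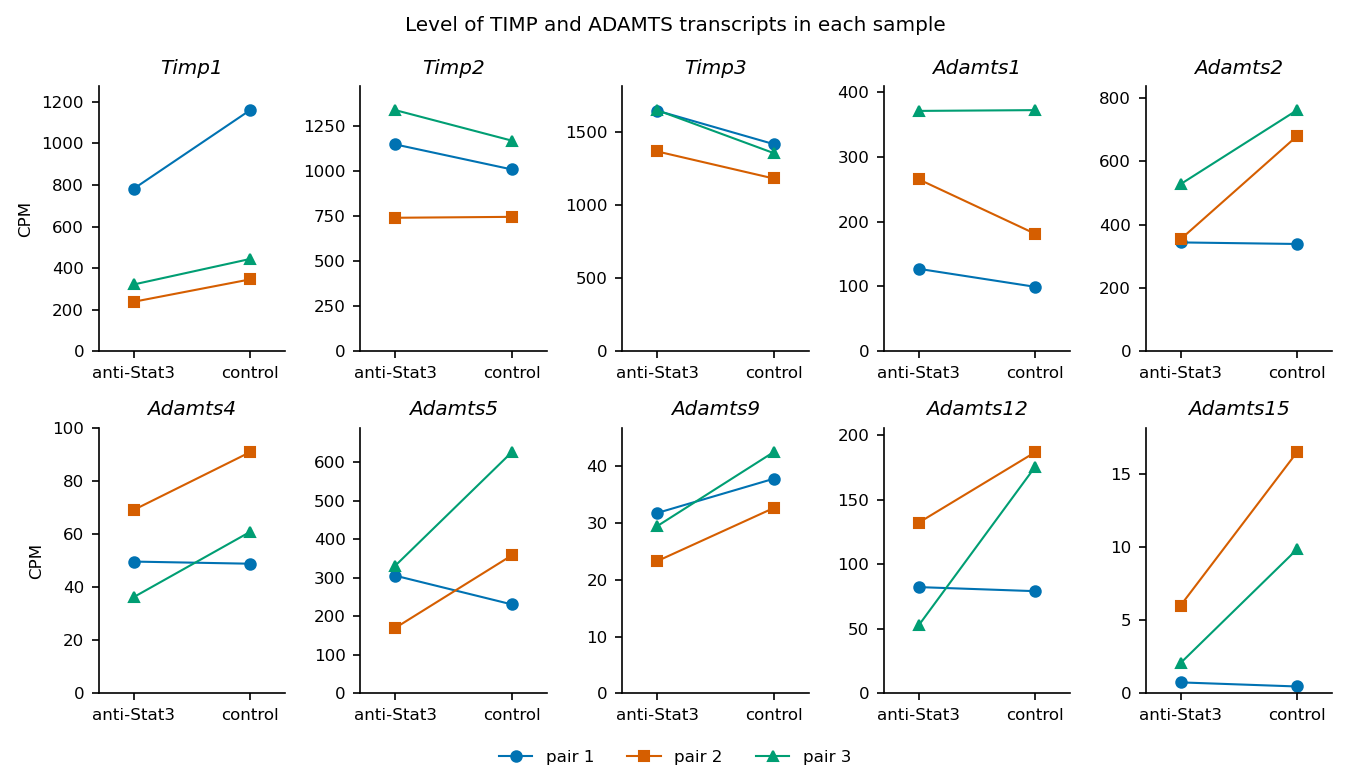
Each panel plots 1 member, with its level (CPM, linear axis from 0) in the anti-Stat3 sample on the left and the control sample on the right. A line joins the samples of a pair (circles, pair 1; squares, pair 2; triangles, pair 3). Timp1 slopes the same way in each pair. Adamts2, Adamts4, Adamts5, Adamts12 and Adamts15 are lower in the anti-Stat3 samples of pairs 2 and 3 only.

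Timp1, a soluble inhibitor of most matrix metalloproteinases that also binds the proform of Mmp9, had 782, 239 and 322 CPM in anti-Stat3 samples 1 to 3, against 1160, 346 and 445 CPM in controls 1 to 3. Both samples of pair 1 lay above all other samples, so the groups overlapped although each anti-Stat3 sample was below its own control. The anti-Stat3 level was 0.674, 0.689 and 0.724 of the control level in pairs 1 to 3, a mean log2 change of -0.52 ± 0.05 (SD, n = 3 pairs). The 95% counting intervals of these changes, which cover counting error only, were -0.60 to -0.54, -0.60 to -0.48 and -0.52 to -0.41. Timp1 fell in DESeq2 with the replicate block, by 0.52 on the log2 scale (SE 0.12, adjusted p = 0.00268). The call needed all 3 pairs, since the adjusted p in that fit was 0.165, 0.668 and 0.459 without pair 1, 2 and 3. Blocked edgeR gave the same size with an adjusted p of 0.170, and blocked limma-voom an adjusted p of 0.133. With the group alone the log2 change in edgeR was -0.54 ± 0.62 (SE, adjusted p = 1.00). Leaving out control sample 1, which leaves pair 1 incomplete, gave 0.17. The controls alone spanned a 3.35-fold range, wider than the change within any pair.

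Both other inhibitors were at a similar or slightly higher level after anti-Stat3 siRNA. Timp3, which binds to the extracellular matrix and blocks Adam17, Adamts4 and Adamts5, had 1642, 1364 and 1646 CPM in anti-Stat3 samples 1 to 3, against 1414, 1180 and 1353 CPM in controls 1 to 3. Each anti-Stat3 sample was above its own control, but anti-Stat3 sample 2 lay below control sample 1, so the groups overlapped. The pair changes of Timp3 were 0.22, 0.21 and 0.28 on the log2 scale. The mean was 0.24 ± 0.04 (SD, n = 3 pairs), and no fit called the gene (blocked DESeq2 adjusted p = 0.587). Timp2, which inhibits Mmp2 and also takes part in its activation by Mmp14, had 1146, 740 and 1336 CPM after anti-Stat3 siRNA and 1007, 745 and 1167 CPM in controls. Its pair changes were 0.19, -0.01 and 0.20, and the counting interval of pair 2, -0.05 to 0.03, held 0. The Timp2 change in edgeR with the group alone was 0.14 ± 0.29 (SE), and was -0.05 without anti-Stat3 sample 3 and -0.02 without control sample 2. Lower in all 3 pairs were 2 of 10 members (Timp1 and Adamts9), against 16.4% of all genes, and higher in all 3 was 1 (Timp3), against 17.3%.

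Per kilobase of exon, Timp1 was the most abundant TIMP transcript in every sample. Its share of the 3 TIMPs was below that of the paired control in every anti-Stat3 sample. The shares add up to the whole, so their directions follow from the level changes above and are not a separate result. The Timp1 share was 64.0%, 42.9% and 39.9% in anti-Stat3 samples 1 to 3, against 75.1%, 53.7% and 51.8% in controls 1 to 3. Timp2 made up 21.4%, 30.3% and 37.8% in anti-Stat3 samples and 14.9%, 26.3% and 31.0% in controls, and Timp3 14.7%, 26.8% and 22.3% against 9.99%, 19.95% and 17.2%. The summed TIMP level per kilobase was 12.6, 4.73 and 5.28 times that of the 7 ADAMTS members in anti-Stat3 samples 1 to 3, against 18.0, 4.04 and 3.99 times in controls 1 to 3. The ratio was thus below its control in pair 1 and above it in pairs 2 and 3. Exon lengths came from an annotation of another build than the counts, so these shares are approximate.

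**Figure D2:**
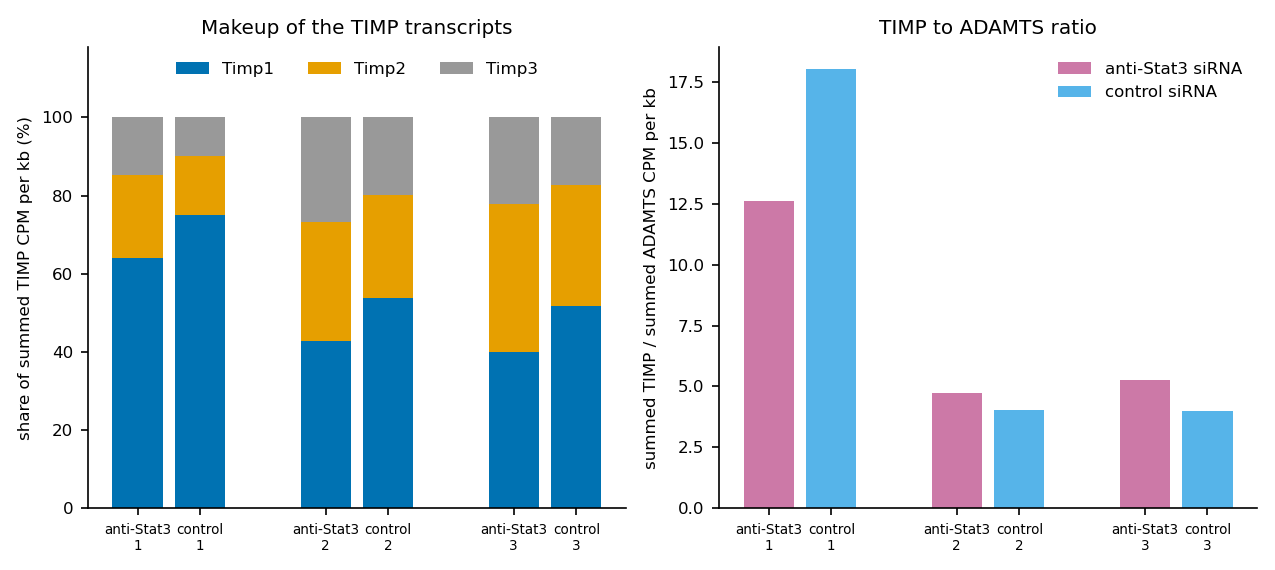
Left, the share of each TIMP in the summed TIMP level per kilobase of exon (%), by sample; right, the summed TIMP level divided by the summed level of the 7 ADAMTS members, both in CPM per kilobase. In each pair the anti-Stat3 bar stands left of the control bar, and the Timp1 share is 39.9% to 64.0% in anti-Stat3 samples and 51.8% to 75.1% in controls.

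The sequences before the annotated start of 4 members are shown because Timp1 was the member called with all pairs, Timp3 was above its control in each pair, and Adamts2 and Adamts12 were lower together in pairs 2 and 3. They are RefSeq promoters of GRCm38.p6, cut to the 250 bases before the start and read 5′ to 3′ on the gene's strand. Capitals mark AGGAAG, a sequence bound by ETS factors, on either strand.
Timp1, chrX:20869916-20870165, plus strand: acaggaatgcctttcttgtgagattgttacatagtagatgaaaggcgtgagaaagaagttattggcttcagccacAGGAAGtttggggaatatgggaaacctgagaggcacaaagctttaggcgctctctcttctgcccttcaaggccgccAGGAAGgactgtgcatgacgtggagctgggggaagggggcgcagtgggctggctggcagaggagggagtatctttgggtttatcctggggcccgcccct
Timp3, chr10:86300162-86300411, plus strand: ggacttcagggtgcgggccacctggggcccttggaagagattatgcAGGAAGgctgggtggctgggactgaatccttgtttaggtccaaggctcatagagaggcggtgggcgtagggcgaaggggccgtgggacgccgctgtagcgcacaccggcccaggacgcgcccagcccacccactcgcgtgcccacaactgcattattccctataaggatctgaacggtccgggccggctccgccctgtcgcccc
Adamts2, chr11:50601835-50602084, plus strand: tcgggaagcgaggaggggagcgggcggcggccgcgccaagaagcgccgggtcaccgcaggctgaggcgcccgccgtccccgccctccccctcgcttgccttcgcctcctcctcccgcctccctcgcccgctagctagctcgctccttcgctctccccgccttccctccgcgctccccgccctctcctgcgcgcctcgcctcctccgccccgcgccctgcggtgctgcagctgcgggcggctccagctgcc
Adamts12, chr15:11064523-11064772, plus strand: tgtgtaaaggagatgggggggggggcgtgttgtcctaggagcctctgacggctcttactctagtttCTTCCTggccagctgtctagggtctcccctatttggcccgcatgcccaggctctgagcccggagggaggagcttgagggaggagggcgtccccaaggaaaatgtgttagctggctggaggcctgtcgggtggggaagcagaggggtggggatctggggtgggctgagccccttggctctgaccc
Timp1 after the start, bases 21 to 50, chrX:20870186-20870215, plus strand: ggtggaTGAGTAAtgcgtccAGGAAGcctg

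In the last of these the capitals mark TGAGTAA, a variant AP-1 sequence known from the Timp1 gene, and a further AGGAAG. RefSeq promoters were matched for 7 members (Timp1, Timp2, Timp3, Adamts1, Adamts2, Adamts9 and Adamts12) and not for Adamts4, Adamts5 and Adamts15. On either strand of the 300 bases from 250 before to 50 after the start, the STAT pattern TTCNNNGAA had a match in 0 of the 7, against 8.3% of 32851 RefSeq promoters. Its stricter form TTCCNGGAA, which overlaps it, also matched 0 of the 7, against 1.15%. The AP-1 consensus TGANTCA matched 0 of the 7, against 7.81% of all promoters, and TGAGTAA matched Timp1, against 2.68%. AGGAAG matched 3 of the 7, against 35.4% of promoters, with 3 matches in Timp1, 1 in Timp3 and 2 in Adamts12. These windows are short, and a match or its absence is a description of the letters alone. The GC content of the 250 bases was 54.4% in Timp1, 65.6% in Timp3, 78% in Adamts2 and 63.2% in Adamts12.

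The proteases that cut hyalectans, the large hyaluronan-binding proteoglycans, had changes of differing sign between genes and pairs. Adamts5, the main aggrecan-cutting protease in the mouse, had 306, 170 and 332 CPM in anti-Stat3 samples 1 to 3, against 231, 358 and 626 CPM in controls 1 to 3. Anti-Stat3 sample 1 lay above its control and the others below theirs, and anti-Stat3 sample 2 was the lowest of all 6, so the groups overlapped. The pair changes were 0.40, -1.07 and -0.92 on the log2 scale, and the counting interval of pair 1, 0.34 to 0.47, lay above 0. Adamts1, which cuts versican and aggrecan and binds vascular endothelial growth factor, had 127, 265 and 370 CPM after anti-Stat3 siRNA and 99.4, 181 and 372 CPM in controls. Anti-Stat3 was higher in pairs 1 and 2 and level with control in pair 3, with pair changes of 0.35, 0.55 and -0.0047. In edgeR with the group alone the Adamts1 change of 0.23 ± 0.57 (SE) was -0.15 without anti-Stat3 sample 3 and -0.12 without control sample 1. The genes Adamts1 and Adamts5 lie next to each other on chromosome 16, with 0 protein-coding genes between them in RefSeq GRCm38.p6, and in pair 2 their changes had opposite signs.

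Adamts4, the other well-studied aggrecanase, had 49.7, 69.2 and 36.3 CPM in anti-Stat3 samples 1 to 3, against 48.9, 91.0 and 60.9 CPM in controls 1 to 3. Samples of pair 1 were level and both other pairs were lower with anti-Stat3, by pair changes of 0.02, -0.39 and -0.75. Adamts9, which cuts versican and is widely expressed in connective tissue, had 31.8, 23.3 and 29.5 CPM after anti-Stat3 siRNA and 37.8, 32.7 and 42.5 CPM in controls. It was the only member whose groups did not overlap (1 of 10, against 2.23% of all genes that were lower without overlap). The pair changes of Adamts9 were -0.25, -0.48 and -0.53, a mean of -0.42 ± 0.15 (SD, n = 3 pairs), and no counting interval held 0. It passed in no fit, with an adjusted p of 0.209 in blocked edgeR and 0.246 in blocked DESeq2. Adamts15, a proteoglycan-cutting relative, was the rarest member, with counts of 12, 89 and 27 in anti-Stat3 samples and 7, 311 and 164 in controls. That is 0.752, 5.99 and 2.07 CPM after anti-Stat3 siRNA, against 0.473, 16.5 and 9.83 CPM with control siRNA. Both samples of pair 1 lay under 1 CPM, and the counting interval of the pair 1 change, -0.79 to 2.25, was too wide to give a direction. In pairs 2 and 3 the log2 changes were -1.44 (-1.81 to -1.11) and -2.18 (-2.89 to -1.65). In edgeR with the group alone the change was -1.60 ± 1.2 (SE). It was -0.81 without control sample 2 and -2.68 without anti-Stat3 sample 2.

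The procollagen protease and the last member showed the same split between pairs. Adamts2, which removes the amino-terminal propeptide of fibrillar procollagens, had 344, 354 and 528 CPM in anti-Stat3 samples 1 to 3, against 339, 680 and 761 CPM in controls 1 to 3. Control sample 1 was about as low as the anti-Stat3 samples of pairs 1 and 2. The pair changes of Adamts2 were 0.02, -0.94 and -0.53, and the interval of pair 1, -0.03 to 0.08, held 0. Adamts12, which cuts cartilage oligomeric matrix protein, had 82.4, 132 and 52.9 CPM after anti-Stat3 siRNA and 79.2, 187 and 176 CPM in controls. Anti-Stat3 sample 3 was the lowest of all 6, at 0.301 of its control. The pair changes of Adamts12 were 0.06, -0.50 and -1.73.

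**Figure D3:**
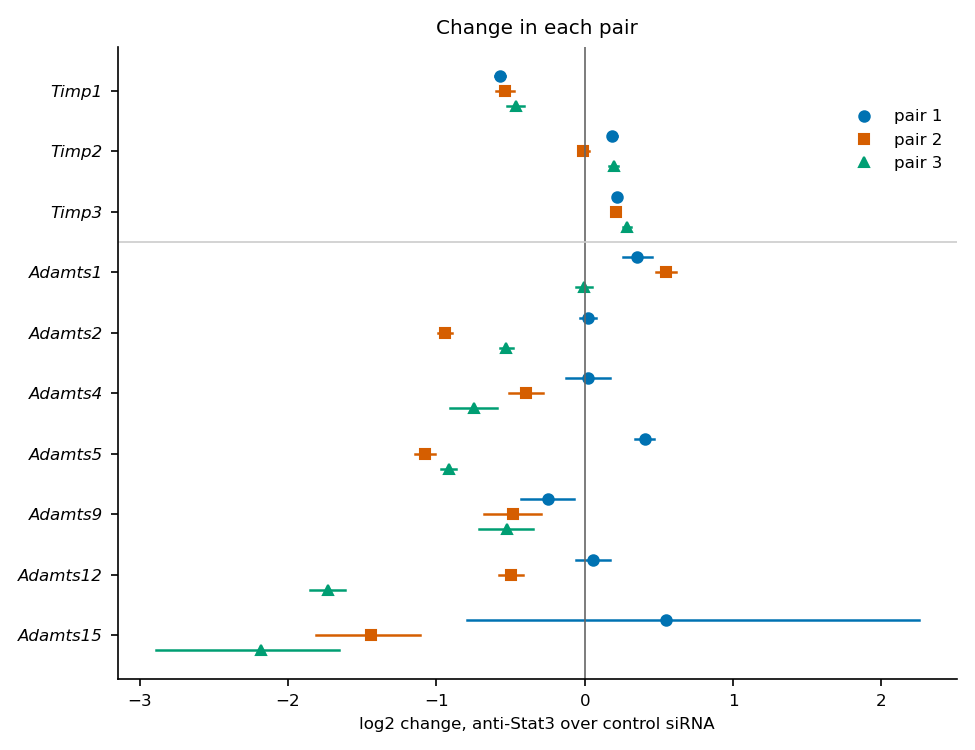
Log2 change of each member (anti-Stat3 over control siRNA) in pairs 1 to 3, with 95% counting intervals as bars; the grey line parts the TIMPs from the ADAMTS proteases. The 3 points of Timp1 lie together at -0.57 to -0.47, while those of Adamts5 run from 0.40 in pair 1 to -1.07 in pair 2.

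In 5 members, Adamts2, Adamts4, Adamts5, Adamts12 and Adamts15, the change in pair 1 was positive and those in pairs 2 and 3 negative. Only that of Adamts5 exceeded counting error in pair 1, and no member was split the other way. Over all genes, 25.5% had a pair 1 change opposite to those of both other pairs, in either direction. The share of all genes split in the same direction as these members was not counted. At least 2-fold lower were 0 members in pair 1 (0.79% of all genes), 2 in pair 2 (Adamts5 and Adamts15, 2.22% of all genes) and 2 in pair 3 (Adamts12 and Adamts15, 3.27%). Without pair 1, only pairs 2 and 3 remained, in which these 5 members had been seen to be lower. Calls in such fits are therefore no independent test of the split. Blocked edgeR then called 703 genes in all, against 8 with all pairs. Among the members 4 fell, against 2.18% of all genes called lower in that fit. They were Adamts15, by 1.77 on the log2 scale (SE 0.25, adjusted p = 4.15e-04), Adamts12, by 1.11 (SE 0.24, adjusted p = 0.0130), Adamts5, by 1.00 (SE 0.16, adjusted p = 0.00144), and Adamts2, by 0.74 (SE 0.17, adjusted p = 0.0193). Blocked DESeq2 without pair 1 called Adamts15, Adamts5 and Adamts2 lower, against 1.17% of all genes, and Adamts12 did not pass there (adjusted p = 0.667). With all 3 pairs, or without pair 2 or pair 3, blocked edgeR and DESeq2 called 0 ADAMTS members. Whether the change differs between pairs could not be tested, since each pair holds 1 sample per group. Pairs 2 and 3 were also those with more macrophage transcripts, with marker sums of 1624 and 2718 CPM in anti-Stat3 samples 2 and 3, against 41.7 CPM in sample 1. Other markers differed by less. In each group pair 1 had the lowest fibroblast marker sum. It was 15551 CPM in anti-Stat3 sample 1, against 17176 and 22187 CPM in samples 2 and 3, and 14373 CPM in control 1, against 21067 and 24244 CPM in controls 2 and 3. Pair 1 also had the highest mural cell marker sum in each group (1378 and 1116 CPM). The part of any of these differences in the result was not tested. Of the 14 macrophage markers 1, Mrc1, was called without pair 1 in blocked edgeR, as lower, and of the 12 fibroblast markers 1, Col5a1, in blocked DESeq2, as lower. The sample descriptions of pair 3 follow another naming scheme than those of pairs 1 and 2.

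**Figure D4:**
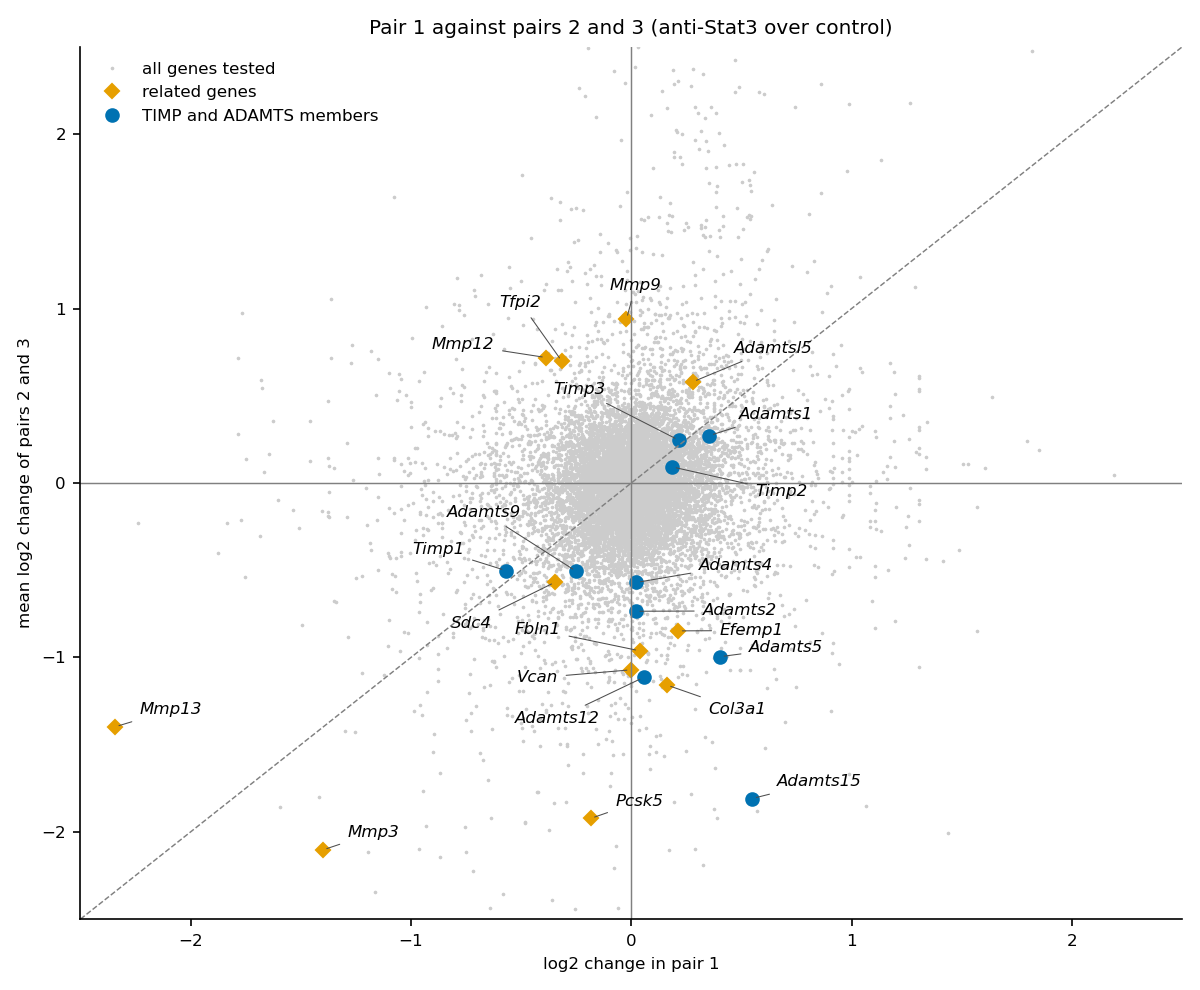
Log2 change in pair 1 (x axis) against the mean log2 change of pairs 2 and 3 (y axis), for the members, for genes of the related lists that passed in a blocked fit with all pairs or without pair 1, and for all genes tested; 94 genes lie outside the axes and the dashed line marks equal change. Adamts2, Adamts4, Adamts5, Adamts12 and Adamts15 lie below 0 on the y axis and at or right of 0 on the x axis, with Vcan, Col3a1 and Fbln1 near them, while Timp1 lies near the dashed line.

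Per kilobase of exon, the TIMPs were above every ADAMTS member in each group. Means in anti-Stat3 samples and controls were 504 ± 330 and 732 ± 500 CPM per kilobase for Timp1, 276 ± 78.1 and 250 ± 54.7 for Timp2, and 190 ± 19.8 and 162 ± 14.9 for Timp3 (SD, n = 3 each). Adamts1 (47.9 ± 23.0 and 41.0 ± 26.3), Adamts2 (43.8 ± 11.1 and 63.6 ± 24.0) and Adamts5 (24.9 ± 8.04 and 37.5 ± 18.7) followed. Adamts4 (10.8 ± 3.44 and 13.9 ± 4.51) and Adamts12 (8.17 ± 3.68 and 13.5 ± 5.42) did not differ beyond their SD in either group. Adamts9, at 1.87 ± 0.29 and 2.503 ± 0.33, and Adamts15, at 0.284 ± 0.263 and 0.861 ± 0.775, were lowest. Control levels spanned the widest range in Adamts15, whose highest control was 34.8 times its lowest, and the narrowest in Timp3, at 1.199 times.

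The remaining TIMP and ADAMTS genes gave 0 calls in edgeR or DESeq2 with the replicate block and all pairs. Of 13 such genes 6 passed the filter on low counts, and the other 7 (Timp4, Adamts8, Adamts13, Adamts17, Adamts18, Adamts19 and Adamts20) stayed under 1 CPM in every sample. The median log2 change of the 6 was -0.15 with the group alone. Adamts6 had 71.0, 66.2 and 45.0 CPM after anti-Stat3 siRNA and 71.8, 70.0 and 86.3 CPM in controls. Adamts7, which like Adamts12 cuts cartilage oligomeric matrix protein, had 42.6, 42.8 and 26.2 CPM against 43.6, 50.9 and 32.3 CPM in controls. Of 7 ADAMTS-like genes, which resemble ADAMTS proteins but lack the protease domain, 0 were called with all pairs, and their median was 0.21. Adamtsl5 was higher in each anti-Stat3 sample than in the control of its pair, with 29.6, 30.8 and 46.3 CPM against 24.4, 20.5 and 31.0 CPM in controls (blocked edgeR adjusted p = 0.185). Without pair 1 it rose by 0.58 on the log2 scale in blocked edgeR (adjusted p = 0.0466) and was not called in blocked DESeq2. Papln had 2.13, 57.1 and 2.07 CPM after anti-Stat3 siRNA and 1.29, 45.1 and 2.46 CPM in controls.

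Most tested substrates of these proteases had a split between pairs. Bcan, Col1a1, Col1a2, Col3a1, Bgn, Fn1 and Thbs1 were higher in pair 1 and lower in pairs 2 and 3, and Tfpi2 the reverse. Of these, Bgn changed little and Bcan was rare. Comp and Vcan had no such split in sign. Pair medians of the tested substrates were 0.09, -0.35 and -0.52, against 0.00, 0.00 and 0.01 over all genes. Over all genes, 25.5% had a pair 1 change opposite to those of both other pairs, in either direction. Of 12 substrates listed, 10 were tested, with a median log2 change of -0.26, and 0 were called with all pairs. Vcan, the proteoglycan versican, had 546, 551 and 556 CPM in anti-Stat3 samples 1 to 3, against 547, 975 and 1387 CPM in controls 1 to 3. Col3a1, a fibrillar collagen chain, had 3465, 5904 and 11240 CPM after anti-Stat3 siRNA and 3098, 15896 and 20786 CPM in controls. Vcan was level in pair 1 (log2 change -0.00088) and Col3a1 slightly higher (0.16), and both were lower in pairs 2 and 3. Without pair 1, Vcan fell by 1.07 and Col3a1 by 1.16 on the log2 scale in blocked edgeR (adjusted p = 0.00188 and 0.00255). In that fit Tfpi2, a protease inhibitor, rose by 0.73 (adjusted p = 0.0378), though it was lower in pair 1 (log2 change -0.31). Blocked DESeq2 without pair 1 called Vcan and Col3a1 lower and did not call Tfpi2. Acan, the aggrecan gene, stayed under 1 CPM in every sample.

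Among 18 tested metalloproteinases that TIMPs inhibit, 2 fell in blocked DESeq2 with all pairs and 0 rose. That fit called 0.783% of all genes lower. The list median was -0.13 with the group alone. Mmp13, a collagenase, had 7.96, 10.4 and 1.23 CPM after anti-Stat3 siRNA and 40.9, 18.2 and 5.28 CPM in controls, and Mmp3, a stromelysin, 146, 48.2 and 2.99 CPM against 385, 127 and 21.7 CPM. The log2 changes were -1.72 ± 0.32 and -1.85 ± 0.46 (SE, DESeq2 adjusted p = 6.59e-05 and 0.00657), and neither passed in blocked edgeR. Fits without pair 1 hold only pairs 2 and 3, and blocked edgeR then called 703 genes in all. It called Mmp13 and Mmp3 lower, against 2.18% of all genes called lower. In the same fit Mmp9, a gelatinase, was called higher by 1.06 and Mmp12, a macrophage elastase, by 0.72 on the log2 scale (adjusted p = 0.0161 and 0.0144). Blocked DESeq2 without pair 1 also called Mmp9 and Mmp12 higher (adjusted p = 0.0456 and 0.0125) and Mmp13 lower. Mmp9 had 111, 65.9 and 8.67 CPM after anti-Stat3 siRNA and 113, 22.97 and 6.72 CPM in controls, and Mmp12 had 3.70, 121 and 126 CPM against 4.87, 75.7 and 73.9 CPM. Among 11 tested genes for maturation, binding and clearance of TIMPs and ADAMTS proteases, 1 fell in blocked DESeq2 (0.783% of all genes). It was Sdc4, the cell surface proteoglycan syndecan 4, with 146, 107 and 99.0 CPM in anti-Stat3 samples and 186, 152 and 154 CPM in controls (log2 change -0.49 ± 0.14, SE, adjusted p = 0.0276). Pcsk5, a proprotein convertase, had 48.2, 48.0 and 34.6 CPM in anti-Stat3 samples, against 54.8, 157 and 153 CPM in controls. It did not pass with all pairs (blocked DESeq2 adjusted p = 0.3003) and fell by 1.92 on the log2 scale without pair 1 (SE 0.17, blocked edgeR adjusted p = 5.94e-06).

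Over the 6 samples, the log2 CPM of Timp1 was most like that of Ppp1r15a (Pearson r = 0.995), Nup62 (0.993), Serpinb2 (0.992), Rbm38 (0.988) and Clcf1 (0.988), among 11903 genes. The pattern of Adamts15, the ADAMTS member with the smallest p in blocked edgeR, was most like that of Prickle3 (0.997), Zfp629 (0.993), Trak1 (0.992), Vldlr (0.992) and Pcdhb20 (0.991). These values describe 6 samples that share 3 pairs.

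Timp1 lies inside the Syn1 gene and Timp3 inside Syn3 in GENCODE M21. Timp1 shares 0% of its exon bases with other genes, and Timp3 shares 21.3% with Syn3, which had 13, 29 and 6 counts in anti-Stat3 samples and 17, 28 and 14 in controls. Adamts9 shares 12% with A730049H05Rik and Gm15737. The sources used here do not say whether counting used the strand, and reads from such stretches cannot be told apart.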

How the data were processed

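RNA-seq was measured in 3 anti-Stat3 siRNA and 3 control siRNA samples of mouse cancer-associated fibroblasts, from poly(A) RNA with an RNA integrity number of at least 9. The authors deposited raw counts per gene symbol, made with TopHat2 2.0.10 and HTSeq on mm9, per the submitters' processing notes. The columns are headed sh where the labels say siRNA, and were matched to samples by group and number. There were 0 columns of other samples.

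Genes with low counts were removed with edgeR's filterByExpr (minimum count 10, minimum total 15), leaving 13284 of 24015. The test was edgeR 4.0.16's quasi-likelihood F test with TMM scaling and the group alone, in R 4.3.3, with Benjamini-Hochberg adjustment over all genes tested and a threshold of 0.05. Alternatives were DESeq2 1.42.0, limma-voom (limma 3.58.1), a replicate block, DESeq2 size factors, no filter, and leaving out each sample or pair. Deviations of same-numbered samples from their group means correlated at 0.818 to 0.834, so the numbers were taken to pair the samples. Deviations of different numbers correlated at -0.163 or less. Taking deviations from group means pushes these below 0, so they are no separate evidence of pairing. Pair changes are differences of log2 CPM with a prior count of 2, with 95% exact (Clopper-Pearson) counting intervals. Levels per kilobase used exon unions of GENCODE M21 (GRCm38), another build than that of the counts. The fits were tested on simulated counts.

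The members and lists were chosen with earlier results of these data known. All members are named. From the lists of related genes, not the marker lists, those called in blocked DESeq2 and the 2 per list with the smallest p in blocked edgeR are named. Tfpi2, the other substrates named for the split between pairs, Fbln1, Mmp9, Mmp12, Mrc1 and Col5a1 were chosen after values were seen. So were the calls without pair 1 and the promoters shown. One overlap of a member with another gene is not reported here.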

Additional observations from a re-analysis of the deposited data

How the results depend on the processing

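With the group alone, 0 members, 0 genes in all and 0 related genes were called by edgeR, and DESeq2 size factors or no filter on low counts changed no call. DESeq2 with the group alone called 17 genes. With the replicate block, edgeR called 8 genes, limma-voom 8 and DESeq2 220, of which DESeq2 called 1 member (Timp1) and 3 related genes (Mmp3, Mmp13 and Sdc4). Leaving out samples or pairs gave 0 to 4 members, 0 to 703 genes and 0 to 11 related genes, the highest each time without pair 1 in blocked edgeR; without control sample 1 the group alone called 40 genes. Blocked DESeq2 called 432, 14 and 20 genes without pairs 1, 2 and 3, and 8, 2 and 2 related genes. In the fits that left out 1 sample, the log2 change ran from -1.22 to 0.17 for Timp1, -0.047 to 0.34 for Timp2 and -0.15 to 0.86 for Adamts1, and each of these changed sign in at least 1 fit. No other member changed sign. The median change of the members stayed between -0.54 and -0.27 in all fits that left out a sample or pair. The cause of these differences was not tested. With 3 samples a group, an exact permutation test could not go below p = 0.1 (two-sided), and Adamts15 in pair 1 was limited by depth.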
